A study of Canis lupus familiaris with 15 samples.

Results

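The genes described here are those that stood above untreated cells when Madin-Darby canine kidney (MDCK) cells received hepatocyte growth factor (HGF), and below untreated cells when a MAPK pathway inhibitor was given with it. MDCK cells are an established dog kidney line and, on a permeable support, grow as a polarised epithelial sheet. RNA of each culture was measured on 1 Affymetrix canine array, and a level is the log2 of the background-corrected probe set intensity that the authors deposited. All 15 cultures were kept on Transwell filters for 7 days in medium with serum. The Control group received medium alone (n = 4). The HGF group received HGF at 100 ng/ml for 24 h (n = 4). The HGF + PD group received HGF in the same way with a compound spelled PD09859 at 50 uM (n = 4), and the HGF + UO group with a compound spelled UO126 at 10 uM (n = 3). Both names were read as misspelled or variant names of well-known MEK inhibitors. No culture given an inhibitor without HGF was analysed here, and the sources used here do not name a vehicle.

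A gene was taken when its HGF mean lay at least 0.5 above the Control mean on the log2 scale and both inhibitor means lay at least 0.5 below it. Only probe sets with 1 annotated symbol and a log2 intensity of at least 4 on 3 or more of the 15 arrays were used. A gene with several such probe sets was represented by the brightest of those that met the limits. The limits were met by 98 of 18490 probe sets, which stood for 74 genes. Integrins, claudins, CDH1, MET, OAS2 and FOS were left out by name, which removed 6 genes (CDH1, CLDN4, FOS, ITGA2, MET and OAS2). The 68 genes left are 0.661% of the 10287 genes with a usable probe set. These levels chose the genes, so every difference from Control or from HGF below is a description without a test.

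HGF binds the receptor tyrosine kinase MET, which signals through RAS, RAF, MEK and ERK. ERK phosphorylates transcription factors of the ETS and AP-1 families and cytoskeletal regulators, and in MDCK cells this pathway is known for its part in cell scattering and tubule formation. Serum and ligands released by the cells themselves can also feed the pathway, so an epithelium without added HGF is known to hold some ERK activity. Whether the inhibitors acted here on more than the share of signalling that HGF adds was not tested.

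The pattern was uncommon among the probe sets that HGF raised. Of the 18490 probe sets, 3124 (16.9%) had an HGF mean at least 0.5 above Control. Among these 3124 the HGF + PD mean lay within 0.5 of Control in 2227 (71.3%), and the HGF + UO mean did so in 2426 (77.7%). The HGF + PD mean was still at least 0.5 above Control in 720 (23.0%), and the HGF + UO mean in 536 (17.2%). Return to near the Control level was thus the usual outcome, and 98 (3.14%) had both inhibitor means at least 0.5 below Control.

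That share was close to the share among the other probe sets. Of the 15366 probe sets without such an HGF rise, 474 (3.08%) had both inhibitor means at least 0.5 below Control. Of the 2973 probe sets with an HGF mean at least 0.5 below Control, 107 (3.60%) showed the mirror image, with both inhibitor means at least 0.5 above it. The median HGF + PD minus Control difference was 0.14 over the HGF-raised probe sets and -0.02 over the others. For HGF + UO these medians were 0.07 and -0.02.

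**Figure D1:**
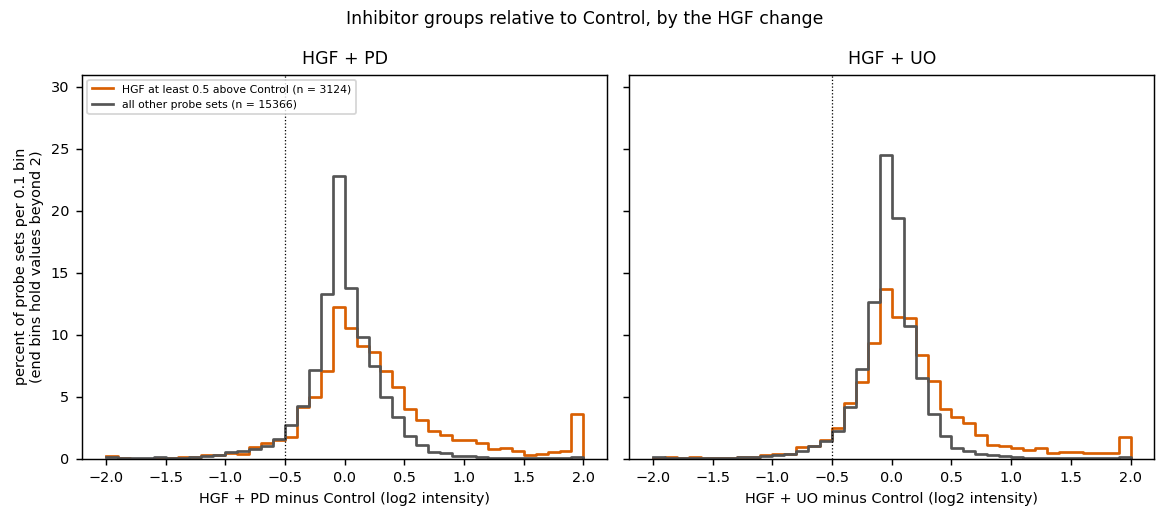
Percent of probe sets (vertical axis) in 0.1-wide bins of the difference between an inhibitor group mean and the Control mean (horizontal axis, log2 intensity), for HGF + PD and HGF + UO. Orange lines are the 3124 probe sets with an HGF mean at least 0.5 above Control and grey lines the other 15366. To the left of the dotted line at -0.5 the lines run close together. Around 0 the grey lines are higher, and from 0.2 upward the orange lines are higher.

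Over the 68 genes the HGF mean exceeded Control by a median of 1.14 (range 0.50 to 7.41). The HGF + PD mean lay below Control by a median difference of -0.78 (range -3.52 to -0.50) and the HGF + UO mean by -0.71 (range -3.56 to -0.51). The same medians over all 10287 genes were -0.01 for each of the 3 comparisons. The drop below Control, averaged over both inhibitors, was larger than the HGF rise in 21 of the 68 genes. Both inhibitor means lay at least 1 below Control in 13 genes and at least 2 below it in 1, SBSN.

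The arrays mostly did not overlap. All 4 HGF arrays lay above all 4 Control arrays in 63 of the 68 genes, a pattern found in 26.4% of all genes. All HGF + PD arrays lay below all Control arrays in 63 (20.6% of all genes), and all HGF + UO arrays did so in 64 (15.4% of all genes). The full order without any overlap held in 58 (2.22% of all genes). As the limits used these arrays, nothing is read from these counts. The 10 genes with some overlap were BRAF, CTNND1, ELK4, FN1, JUP, KDM7A, PIM1, PLXND1, SGMS2 and SIRPA.

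Their Control level had a median log2 intensity of 8.25, against 8.52 over all genes. The median standard deviation (SD) of the 4 Control arrays was 0.162 for these genes and 0.0911 over all genes. With 1 of the 15 arrays left out in turn, 42 genes met the limits every time and 26 failed at least once. Leaving out Control replicate 1 removed 12, more than any other single array. Leaving out Control replicate 4 removed 9, and Control replicate 2, Control replicate 3 or HGF + UO replicate 2 removed 8 each.

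At the limits, values ran on without a gap. Just inside the HGF limit lay HENMT1, KDM7A and ELK4, with HGF minus Control differences of 0.50, 0.50 and 0.51, and just outside it HSF1 (0.49), FMR1 (0.44) and FOXA2 (0.42). Just inside the limit for HGF + PD minus Control lay IDH2 (-0.50), PIM1 (-0.50) and KLC3 (-0.51), and just outside it CD9 (-0.48), DHRS9 (-0.48) and BTBD6 (-0.47). For HGF + UO minus Control the nearest inside were PEA15 (-0.51), BRAF (-0.52) and CTNND1 (-0.52), and the nearest outside were IGF2BP1 (-0.49), SH3GLB1 (-0.48) and EEA1 (-0.48).

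The label of the cells was checked against markers. All 10 kidney epithelial markers on the array, among them CDH16, EPCAM, PAX2 and PAX8, were above the filter level of 4 on every array. Their summed intensity ranged from 117406 to 130328 in Control and was lower, without overlap, in the others (83765 to 102399 in HGF, 81413 to 104921 in HGF + PD and 88856 to 97727 in HGF + UO). Of 8 fibroblast markers COL1A1, COL1A2, DCN and LUM were below it on every array, as were 3 of 6 endothelial markers (TEK, VWF and ESAM) and 3 of 7 leukocyte markers (ITGAM, CSF1R and LCP1). The fibroblast markers COL3A1, PDGFRA, PDGFRB and VIM, the endothelial markers PECAM1, CDH5 and KDR and the leukocyte marker CD3E were above it on every array. The summed intensity of the fibroblast list, which holds VIM, ranged from 40925 to 42718 in Control, 58949 to 64032 in HGF, 37596 to 43818 in HGF + PD and 39658 to 41420 in HGF + UO. That of the leukocyte list ranged from 128.3 to 132.6, 144.8 to 388, 114.7 to 121.0 and 119.4 to 131.1 in the same order, and that of the endothelial list overlapped between groups (422 to 523 in all). The log2 ratio of the 3' to the 5' beta-actin control probe set also moved with HGF, at 2.24 ± 0.05 (SD, n = 4) in Control, 1.48 ± 0.08 (n = 4) in HGF, 2.13 ± 0.07 (n = 4) in HGF + PD and 2.15 ± 0.04 (n = 3) in HGF + UO. The part of these measures in the results was not tested. Arrays of whole cultures cannot tell fewer cells of a kind from less RNA per cell.

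**Figure D2:**
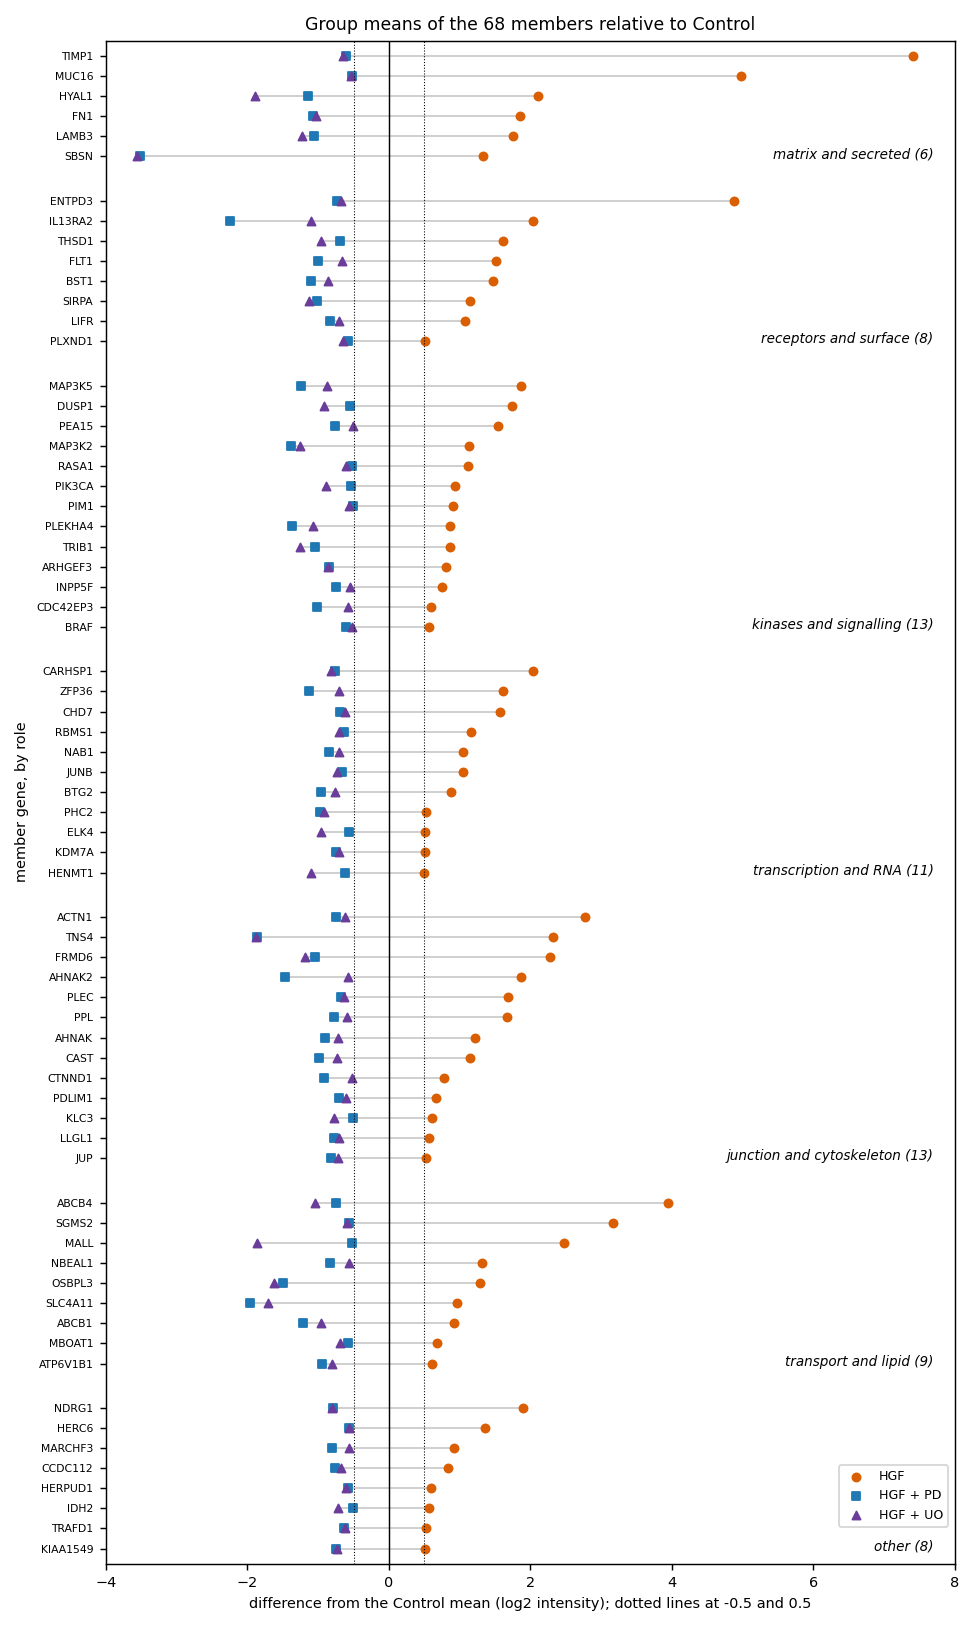
Difference of each group mean from the Control mean (horizontal axis, log2 intensity) for the 68 genes (vertical axis), grouped by role, with circles for HGF, squares for HGF + PD and triangles for HGF + UO. All circles lie right of 0.5 and all squares and triangles left of -0.5, as the limits require, and TIMP1 (7.41), MUC16 (4.97) and ENTPD3 (4.87) lie farthest right while SBSN lies farthest left (-3.52 and -3.56).

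The genes were grouped by known role after their values had been seen. Matrix and secreted proteins made a group of 6, with median differences from Control of 1.98 for HGF, -1.07 for HGF + PD and -1.13 for HGF + UO. TIMP1, a secreted inhibitor of matrix metalloproteinases, had the largest HGF difference of the 68 genes. Its log2 intensity was 6.61, 6.57, 6.30 and 6.45 in Control, 13.82, 13.93, 13.80 and 14.03 with HGF, 5.74, 5.81, 5.94 and 5.99 with HGF + PD, and 6.02, 5.79 and 5.71 with HGF + UO. The HGF arrays stood 170.2-fold above Control, and both inhibitor groups stood below every Control array, by -0.61 ± 0.09 for HGF + PD and -0.64 ± 0.10 for HGF + UO (± standard error, SE, of the fit, here and below).

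SBSN (suprabasin), a secreted protein of differentiating epidermis, had the deepest drop. It read 7.43, 6.92, 6.95 and 7.28 in Control, 8.40, 8.60, 8.34 and 8.54 with HGF, 3.53, 3.38, 3.80 and 3.78 with HGF + PD, and 3.39, 3.59 and 3.77 with HGF + UO. The HGF arrays lay 2.50-fold above Control, while the inhibitor arrays lay 11.5-fold (HGF + PD) and 11.8-fold (HGF + UO) below it. No arrays of different groups overlapped except those of the 2 inhibitor groups. All 7 inhibitor arrays were below the filter level of 4, where the size of a drop depends on the authors' background correction.

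On the probe set used, MUC16, a membrane mucin, was at the floor outside the HGF group. Its arrays read 3.29, 2.48, 2.37 and 2.51 in Control, 7.29, 7.75, 7.68 and 7.82 with HGF, 2.00, 2.13, 2.13 and 2.29 with HGF + PD, and 2.14, 2.17 and 2.06 with HGF + UO. Only the HGF arrays passed the filter level, so the differences of -0.53 and -0.54 between inhibitor groups and Control compare values near the lowest on the array. Control replicate 1 was higher than the other 3, and without it, or without HGF + PD replicate 1, MUC16 no longer met the limits. Another MUC16 probe set gave 4.05 for HGF but -0.17 and -0.31 for the inhibitor groups. A much brighter MUC16 probe set, at 8.79 in Control and 9.23 with HGF, was well above the floor in every group. It gave only 0.44 for HGF and -0.25 and -0.18 for the inhibitor groups.

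HYAL1, a hyaluronidase that cleaves the matrix polymer hyaluronan, read 9.59, 9.36, 9.44 and 9.41 in Control, 11.49, 11.62, 11.59 and 11.52 with HGF, 8.36, 8.26, 8.13 and 8.48 with HGF + PD, and 7.83, 7.51 and 7.32 with HGF + UO. The 4 groups did not overlap. LAMB3 encodes a chain of the laminin that anchors epithelia to the basement membrane through hemidesmosomes. Its arrays read 11.08, 10.92, 10.88 and 11.07 in Control, 12.62, 12.76, 12.75 and 12.84 with HGF, 9.76, 10.00, 9.98 and 9.97 with HGF + PD, and 9.80, 9.56 and 9.91 with HGF + UO, with no overlap of HGF, Control and inhibitor arrays. Fibronectin (FN1) read 5.50, 6.17, 5.90 and 6.32 in Control, 7.53, 7.78, 7.67 and 8.31 with HGF, 4.48, 4.82, 5.37 and 4.94 with HGF + PD, and 5.49, 3.43 and 5.91 with HGF + UO. HGF + UO replicate 2 was the lowest array and replicate 3 lay inside the Control range. Without replicate 2 FN1 no longer met the limits. None of the 3 other FN1 probe sets met them, with HGF + UO minus Control between -0.08 and -0.02.

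Among 8 receptors and surface proteins, the median differences from Control were 1.49 for HGF, -0.92 for HGF + PD and -0.78 for HGF + UO. ENTPD3, an ectonucleotidase that hydrolyses extracellular ATP, read 6.60, 6.29, 6.26 and 6.21 in Control, 11.11, 11.40, 11.14 and 11.20 with HGF, 5.55, 5.55, 5.66 and 5.65 with HGF + PD, and 5.27, 6.06 and 5.65 with HGF + UO. HGF arrays stood 29.3-fold above Control. The inhibitor arrays lay below all Control arrays, although HGF + UO replicate 2 came close to them.

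IL13RA2, a decoy-type cytokine receptor, read 5.88, 6.20, 6.70 and 6.36 in Control, 8.25, 7.89, 8.47 and 8.70 with HGF, 3.97, 4.21, 4.21 and 3.76 with HGF + PD, and 5.65, 4.78 and 5.14 with HGF + UO. No arrays of the 4 groups overlapped, and the HGF + PD arrays were the lowest. The VEGF receptor FLT1 differed from Control by 1.51 ± 0.11 with HGF, -1.01 ± 0.11 with HGF + PD and -0.67 ± 0.12 with HGF + UO, and its 2 other probe sets met the limits too. BST1, an ectoenzyme of nicotinamide metabolism, differed by 1.47 ± 0.14, -1.11 ± 0.14 and -0.86 ± 0.15 in the same order. Its second probe set gave 1.65, -2.47 and -1.61.

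The receptor of leukemia inhibitory factor, LIFR, differed by 1.07 ± 0.18, -0.83 ± 0.18 and -0.70 ± 0.20. The CD47 receptor SIRPA gave 1.14 ± 0.24, -1.01 ± 0.24 and -1.13 ± 0.26, with HGF + PD arrays from 6.45 to 7.56 that overlapped the lowest Control array at 7.39. THSD1, a transmembrane protein with a thrombospondin type domain, gave 1.61 ± 0.10, -0.69 ± 0.10 and -0.96 ± 0.11. The semaphorin receptor PLXND1 was the least certain of the group. Its Control arrays read 6.40, 6.08, 6.36 and 5.97, its HGF + PD arrays 4.66, 6.10, 5.80 and 5.96 and its HGF + UO arrays 6.10, 4.64 and 5.93, so both inhibitor groups overlapped Control.

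**Figure D3:**
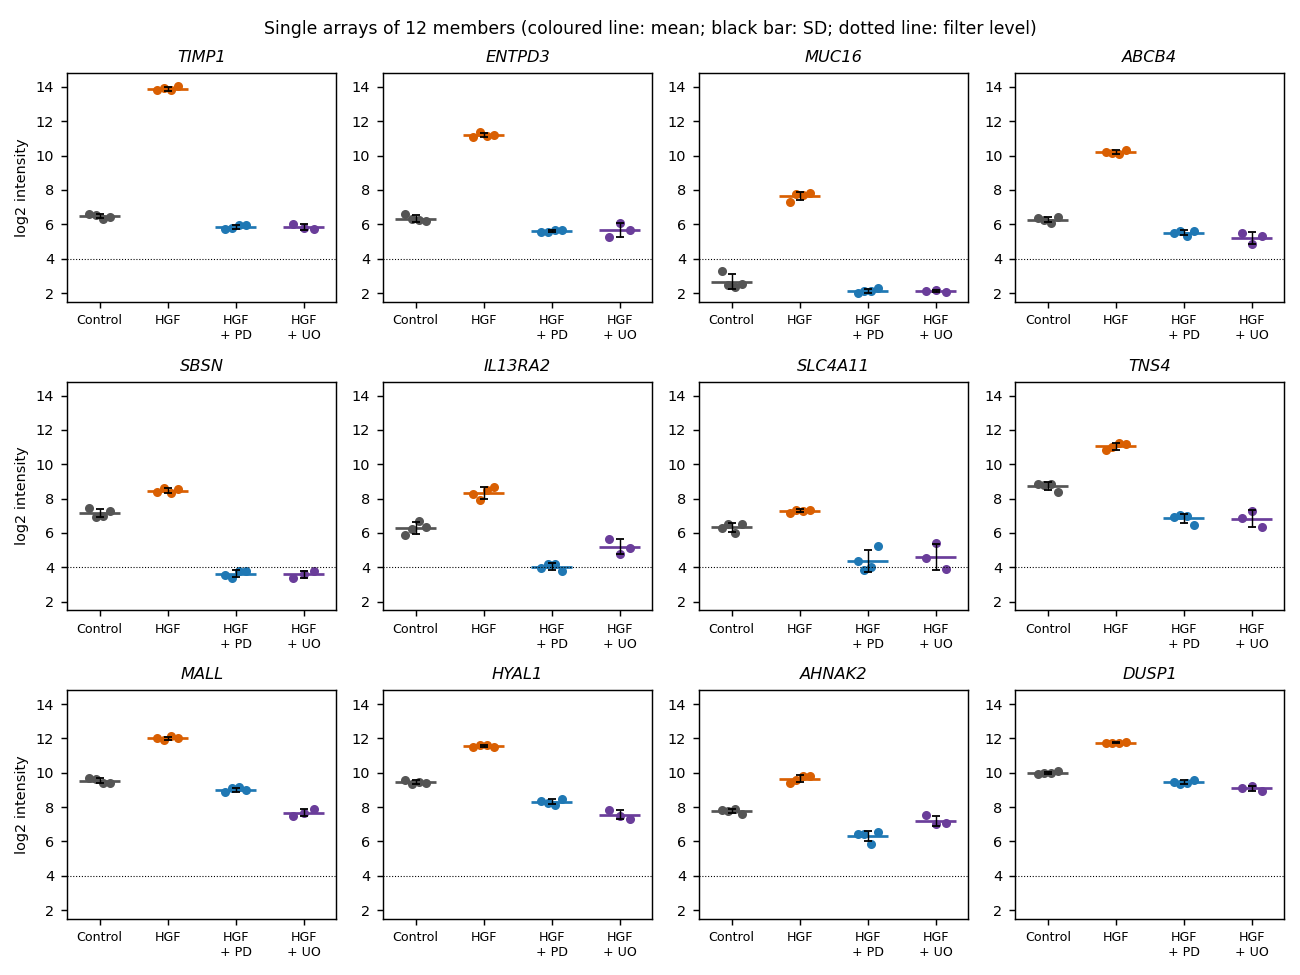
Log2 intensity (vertical axis) on each array of the 4 groups (horizontal axis) for 12 genes. Points are arrays, coloured lines group means, black bars the SD and the dotted line the filter level of 4. TIMP1 shows the widest HGF step (6.48 to 13.89), SBSN the deepest drop below Control (7.14 to 3.62 and 3.59), and MALL and IL13RA2 the widest gaps between the inhibitor groups.

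Kinases and signalling regulators numbered 13, with median differences of 0.90, -0.76 and -0.86 for HGF, HGF + PD and HGF + UO. Several act on the pathway that the inhibitors block. DUSP1, a phosphatase of MAP kinases, read 9.92, 10.00, 9.99 and 10.08 in Control, 11.74, 11.73, 11.71 and 11.79 with HGF, 9.48, 9.36, 9.39 and 9.58 with HGF + PD, and 9.09, 9.24 and 8.93 with HGF + UO, and no arrays of different groups overlapped. BRAF, the kinase directly above MEK, differed from Control by 0.57 ± 0.16, -0.61 ± 0.16 and -0.52 ± 0.17, with an HGF array at 7.01 inside the Control range. RASA1, which switches RAS off, gave 1.11 ± 0.05, -0.52 ± 0.05 and -0.61 ± 0.06. No other RASA1 probe set met the limits, and the brightest gave 0.96, -0.40 and -0.34.

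PEA15, which binds ERK and holds it in the cytoplasm, gave 1.55 ± 0.13, -0.76 ± 0.13 and -0.51 ± 0.14. TRIB1 is a pseudokinase that brings substrates to a ubiquitin ligase. It was the brightest of this group and differed by 0.86 ± 0.08, -1.04 ± 0.08 and -1.25 ± 0.09, with no overlap between HGF, Control and inhibitor arrays. Its 2 other probe sets met the limits as well, at -1.53 and -2.11 for HGF + PD and -1.52 and -1.68 for HGF + UO.

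2 kinases of other MAP kinase branches were included. MAP3K2 read 5.04, 5.61, 5.36 and 5.66 in Control, 6.93, 6.36, 6.38 and 6.53 with HGF, 4.37, 3.91, 4.21 and 3.63 with HGF + PD, and 4.10, 4.32 and 4.06 with HGF + UO. Its inhibitor arrays lay near the filter level and below every Control array, and its other probe set, also near the filter level, differed by 0.28, -0.07 and 0.00. MAP3K5 (ASK1), a stress-activated kinase, differed by 1.86 ± 0.23, -1.24 ± 0.23 and -0.87 ± 0.25. The lipid kinase subunit PIK3CA gave 0.94 ± 0.10, -0.53 ± 0.10 and -0.90 ± 0.11, and the phosphoinositide phosphatase INPP5F gave 0.75 ± 0.09, -0.75 ± 0.09 and -0.55 ± 0.09.

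PLEKHA4, a phosphoinositide-binding protein, read 6.23, 5.73, 6.30 and 5.37 in Control, 6.38, 6.50, 7.37 and 6.84 with HGF, 4.57, 4.69, 4.69 and 4.18 with HGF + PD, and 4.87, 4.75 and 4.87 with HGF + UO. Its inhibitor arrays did not reach the Control range, but a second, brighter probe set gave -0.15 for HGF, -0.64 for HGF + PD and -0.26 for HGF + UO. The serine/threonine kinase PIM1 gave 0.90 ± 0.20, -0.50 ± 0.20 and -0.56 ± 0.22. The guanine nucleotide exchange factor ARHGEF3 gave 0.80 ± 0.13, -0.84 ± 0.13 and -0.86 ± 0.14, and the CDC42 effector CDC42EP3 gave 0.59 ± 0.13, -1.02 ± 0.13 and -0.58 ± 0.14. A brighter CDC42EP3 probe set gave 0.46, -0.84 and -0.29 and did not meet the limits.

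Regulators of transcription and RNA numbered 11, with median differences of 1.05 for HGF, -0.75 for HGF + PD and -0.73 for HGF + UO. JUNB is a subunit of the AP-1 factor. It read 7.13, 7.17, 7.05 and 6.89 in Control, 7.79, 7.99, 8.36 and 8.30 with HGF, 6.41, 6.41, 6.42 and 6.37 with HGF + PD, and 6.42, 6.24 and 6.33 with HGF + UO, with no overlap between HGF, Control and inhibitor arrays. ZFP36, which marks AU-rich messages for decay, read 5.89, 5.79, 6.07 and 5.82 in Control, 7.22, 7.46, 7.76 and 7.58 with HGF, 4.45, 5.29, 4.88 and 4.44 with HGF + PD, and 5.40, 4.96 and 5.19 with HGF + UO, again without such overlap. Another ZFP36 probe set, with a higher Control mean of 6.33, gave 1.01, -0.48 and -0.27 and did not meet the limits. The antiproliferative gene BTG2 differed by 0.88 ± 0.12, -0.96 ± 0.12 and -0.77 ± 0.13, and NAB1, a co-repressor of EGR factors, by 1.05 ± 0.13, -0.84 ± 0.13 and -0.71 ± 0.14.

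ELK4, an ETS factor that ERK phosphorylates and that binds DNA with SRF, was dim (4.54 in Control) and met the limits in 8 of the 15 settings with 1 array left out. It differed by 0.51 ± 0.26, -0.57 ± 0.26 and -0.96 ± 0.28. HENMT1, a methyltransferase of small RNAs, read 9.16, 8.94, 9.01 and 9.16 in Control, 9.60, 9.63, 9.45 and 9.60 with HGF, 8.55, 8.12, 8.47 and 8.65 with HGF + PD, and 7.99, 8.04 and 7.89 with HGF + UO. Its HGF and Control arrays were apart by a small gap and its HGF + UO arrays were the lowest.

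The RNA-binding protein CARHSP1 had an uneven HGF group, at 7.15, 6.86, 6.97 and 8.86, all above Control (5.24 to 5.71). Its inhibitor differences were -0.77 ± 0.32 and -0.82 ± 0.35. Brighter CARHSP1 probe sets, at 8.04 and 8.88 in Control, did not meet the limits. Their differences were -0.30 and -0.05 for HGF + PD and -0.44 and -0.43 for HGF + UO. RBMS1, another RNA-binding protein, differed by 1.16 ± 0.07, -0.63 ± 0.07 and -0.70 ± 0.08. Chromatin proteins were CHD7 (1.57 ± 0.23, -0.69 ± 0.23 and -0.61 ± 0.25), the Polycomb subunit PHC2 (0.52 ± 0.16, -0.98 ± 0.16 and -0.92 ± 0.17) and the histone demethylase KDM7A (0.50 ± 0.21, -0.75 ± 0.21 and -0.70 ± 0.23). Of the 3 other CHD7 probe sets, 1 had the signs of the pattern (1.22, -0.30 and -0.40) without meeting the limits, and the other 2 were within 0.3 of Control in all 3 groups. For PHC2, brighter probe sets gave HGF differences of 0.40 and 0.44, short of the limit, and inhibitor differences from -0.86 to -0.63.

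Junction and cytoskeletal proteins numbered 13, with median differences of 1.22 for HGF, -0.82 for HGF + PD and -0.70 for HGF + UO. TNS4, a tensin of focal adhesions, read 8.86, 8.78, 8.84 and 8.39 in Control, 10.80, 10.98, 11.21 and 11.18 with HGF, 6.90, 7.04, 7.00 and 6.48 with HGF + PD, and 6.88, 7.28 and 6.35 with HGF + UO. All 7 inhibitor arrays lay more than 1 log2 unit below the lowest Control array, and a second TNS4 probe set met the limits too (2.13, -0.98 and -0.91). ACTN1, the actin cross-linker alpha-actinin, read 8.84, 8.69, 9.21 and 8.49 in Control, 11.31, 11.57, 11.81 and 11.61 with HGF, 7.86, 8.44, 8.12 and 7.85 with HGF + PD, and 8.34, 8.05 and 8.15 with HGF + UO. Its HGF arrays were 6.82-fold above Control and the inhibitor arrays were below all Control arrays by narrow margins.

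FRMD6, a FERM domain protein linked to the Hippo pathway, read 5.24, 5.02, 4.77 and 5.27 in Control, 7.33, 7.09, 7.36 and 7.65 with HGF, 4.01, 4.09, 3.71 and 4.31 with HGF + PD, and 3.88, 3.91 and 3.87 with HGF + UO. HGF, Control and inhibitor arrays were apart, with 4 of the 7 inhibitor arrays below the filter level. The giant scaffold AHNAK2 read 7.85, 7.78, 7.89 and 7.58 in Control, 9.38, 9.59, 9.78 and 9.83 with HGF, 6.43, 6.41, 5.85 and 6.55 with HGF + PD, and 7.52, 7.00 and 7.09 with HGF + UO. Its inhibitor groups were below Control and apart from each other, with HGF + UO the higher. The related AHNAK differed by 1.22 ± 0.12, -0.91 ± 0.12 and -0.71 ± 0.13. Of its 5 other probe sets, 3 met the limits, while one of the 2 brighter ones gave 0.90, 0.17 and -0.14.

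Several of these proteins build desmosomes, hemidesmosomes and adherens junctions. Plakoglobin (JUP) differed by 0.53 ± 0.16, -0.82 ± 0.16 and -0.71 ± 0.17, and both other JUP probe sets met the limits. Periplakin (PPL) differed by 1.67 ± 0.07, -0.77 ± 0.07 and -0.60 ± 0.07, and its second probe set agreed in sign and met the limits (1.69, -0.78 and -0.66). Plectin (PLEC) gave 1.68 ± 0.18, -0.68 ± 0.18 and -0.64 ± 0.19, while its other probe set differed by at most 0.02 in each group. The p120 catenin CTNND1 gave 0.78 ± 0.26, -0.91 ± 0.26 and -0.52 ± 0.28, with overlap of both inhibitor groups and Control.

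CAST, the calpain inhibitor calpastatin, was among the brighter and tighter genes. It read 11.14, 11.08, 11.13 and 11.04 in Control, 12.26, 12.25, 12.26 and 12.20 with HGF, 10.00, 10.21, 10.19 and 10.02 with HGF + PD, and 10.52, 10.20 and 10.37 with HGF + UO. HGF, Control and inhibitor arrays were apart, although 2 of its 3 other probe sets, both brighter, gave HGF differences of 0.10 and 0.22. The LIM protein PDLIM1 differed by 0.66 ± 0.05, -0.70 ± 0.05 and -0.61 ± 0.05. The polarity protein LLGL1 gave 0.57 ± 0.16, -0.78 ± 0.16 and -0.70 ± 0.17, and the kinesin light chain KLC3 gave 0.61 ± 0.11, -0.51 ± 0.11 and -0.78 ± 0.12.

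Transport and lipid proteins numbered 9, with median differences of 1.29 for HGF, -0.84 for HGF + PD and -0.96 for HGF + UO. ABCB4, which moves phosphatidylcholine across membranes, read 6.34, 6.25, 6.07 and 6.41 in Control, 10.22, 10.15, 10.12 and 10.35 with HGF, 5.50, 5.63, 5.33 and 5.63 with HGF + PD, and 5.52, 4.84 and 5.32 with HGF + UO. ABCB1, the drug efflux pump P-glycoprotein, read 8.93, 8.64, 8.73 and 8.99 in Control, 9.82, 9.60, 9.85 and 9.71 with HGF, 7.62, 7.51, 7.43 and 7.87 with HGF + PD, and 7.98, 7.74 and 7.85 with HGF + UO. For both genes HGF, Control and inhibitor arrays were apart. They are direct neighbours in RefSeq's dog gene table, with 0 coding genes between them, and no other pair of the 68 genes lay so close. Their proteins are closely related, so cross-hybridisation between their probes could not be examined here. A second, brighter ABCB4 probe set gave 3.93 for HGF but -0.38 and -0.32 for the inhibitor groups.

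SGMS2, a sphingomyelin synthase, read 8.47, 8.41, 8.57 and 7.53 in Control, 11.37, 11.25, 11.57 and 11.46 with HGF, 7.74, 7.76, 7.70 and 7.54 with HGF + PD, and 7.85, 7.58 and 7.51 with HGF + UO. Control replicate 4 was about as low as the inhibitor arrays, so the inhibitor groups overlapped Control at that array. MALL, a lipid raft protein of the MAL family, read 9.68, 9.63, 9.41 and 9.43 in Control, 12.01, 11.91, 12.12 and 12.04 with HGF, 8.88, 9.08, 9.14 and 8.97 with HGF + PD, and 7.49, 7.65 and 7.88 with HGF + UO. It had the widest gap between the inhibitor groups, with HGF + UO far lower. OSBPL3, an oxysterol-binding protein, read 9.68, 9.62, 9.75 and 9.63 in Control, 10.88, 10.80, 11.16 and 11.00 with HGF, 8.04, 8.35, 7.97 and 8.31 with HGF + PD, and 8.33, 8.05 and 7.77 with HGF + UO, with the HGF, Control and inhibitor arrays well apart.

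SLC4A11, a transporter of the bicarbonate transporter family, read 6.26, 6.52, 5.99 and 6.52 in Control, 7.16, 7.34, 7.30 and 7.35 with HGF, 4.37, 3.82, 4.01 and 5.24 with HGF + PD, and 4.54, 5.40 and 3.89 with HGF + UO. Its inhibitor arrays were scattered but below all Control arrays. The lowest of each inhibitor group (3.82 and 3.89) were below the filter level of 4, where the size of a drop depends on the authors' background correction. A dimmer SLC4A11 probe set differed by 0.07, -0.05 and -0.07. NBEAL1 gave 1.31 ± 0.16, -0.84 ± 0.16 and -0.56 ± 0.18, the acyltransferase MBOAT1 0.68 ± 0.11, -0.58 ± 0.11 and -0.69 ± 0.12, and ATP6V1B1, a subunit of the proton pump of acid-secreting kidney cells, 0.61 ± 0.09, -0.94 ± 0.09 and -0.80 ± 0.10.

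The other 8 genes had median differences of 0.71, -0.69 and -0.65. NDRG1, a gene known to respond to hypoxia, differed by 1.90 ± 0.11, -0.79 ± 0.11 and -0.81 ± 0.12. The interferon-inducible HERC6 gave 1.36 ± 0.05, -0.56 ± 0.05 and -0.56 ± 0.06. The remaining 6, HERPUD1 of endoplasmic reticulum quality control, the mitochondrial enzyme IDH2, the ubiquitin ligase MARCHF3, TRAFD1, CCDC112 and KIAA1549, had HGF differences from 0.51 to 0.93 and inhibitor differences from -0.81 to -0.50. Brighter probe sets of HERPUD1, IDH2 and TRAFD1 had the signs of the pattern but did not meet the limits.

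Most genes had further probe sets on the array. Of the 68, 44 had 70 other usable probe sets, of which 64 had the signs of the pattern and 22 met the limits in full. A sign was counted however small the difference, as for PLEC (0.02, -0.02 and -0.01). The share with these signs over all probe sets is not given here, so nothing is read from the sign count. The probe set used was the brightest of its gene in 52 of the 68. For 32 genes it was of the type that can share probes between transcripts (_s_at).

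Whether the inhibitor groups differed from each other was tested, since the limits do not fix which of the 2 is lower. The doses differed (50 uM and 10 uM), so the test compares the treatments as given. The labels call the samples biological replicates without saying whether they came from separate experiments, and the p-values rest on array-to-array spread, which may be technical. Of the 68 genes, 3 were higher and 4 lower with HGF + UO than with HGF + PD at an adjusted p under 0.05 (limma, Benjamini-Hochberg over 24904 probe sets). Over all 10287 genes 2.70% were higher and 7.07% lower, so these counts lie near the background. The median difference was 0.04 over the 68 genes and -0.01 over all genes. It was -0.013 without HGF + PD replicate 1 and -0.025 without HGF + UO replicate 1, so its sign is not settled.

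MALL was lower with HGF + UO by 2.55-fold (-1.35 ± 0.10, limma adjusted p = 6.71e-06). HYAL1 was lower by 1.69-fold (-0.75 ± 0.11, limma adjusted p = 0.00108), HENMT1 by 1.39-fold (-0.48 ± 0.11, limma adjusted p = 0.0145) and DUSP1 by 1.29-fold (-0.37 ± 0.07, limma adjusted p = 0.0075). The 2 other HYAL1 probe sets did not meet the limits. The brighter one lay less far below Control with HGF + UO (-0.36) than with HGF + PD (-0.58), the reverse order, and the dimmer one differed by -0.21 and -0.16. For DUSP1, another probe set kept the order (-0.94 with HGF + UO and -0.64 with HGF + PD). A further DUSP1 probe set lay near Control in both groups (-0.08 and -0.12). In each of these 4 genes all 3 HGF + UO arrays lay below all 4 HGF + PD arrays. The inhibitor groups lay apart in this way, in either direction, in 9 of the 68 genes and in 21.6% of all genes. Lack of overlap was thus not unusual, and nothing is read from it here. IL13RA2 was higher with HGF + UO by 2.23-fold (1.15 ± 0.23, limma adjusted p = 0.00813) and AHNAK2 by 1.86-fold (0.89 ± 0.17, limma adjusted p = 0.00589), again with no overlap of the arrays. For IL13RA2 2 of the 4 HGF + PD arrays were below the filter level, and with 16 added to each intensity before the log its difference was 0.70. CAST was higher by 1.19-fold (0.26 ± 0.07, limma adjusted p = 0.0374), with HGF + UO replicate 2 at 10.20 inside the HGF + PD range of 10.00 to 10.21.

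MALL, HYAL1 and IL13RA2 stayed past the threshold in all 22 alternative fits and left-out arrays, CAST in 14 of them (adjusted p from 0.0114 to 0.164). Fitting the inhibitor arrays alone left 1 gene higher and 2 lower, scaling the arrays again by quantiles gave 6 higher, and leaving out HGF + UO replicate 2 gave 5 higher.

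The other 61 genes did not pass. For 37 of them the 95% interval of the difference lay within 0.5 in either direction, among them TIMP1 (-0.24 to 0.18), LAMB3 (-0.36 to 0.02) and TNS4 (-0.45 to 0.41). MUC16 and SBSN are counted among the 37, but both of their inhibitor groups lay below the filter level, so their intervals do not bear on how alike the treatments are. The intervals of the 61 reached from -0.999 (ELK4) to 0.997 (FN1), so larger differences cannot be told from none for the noisier genes.

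**Figure D4:**
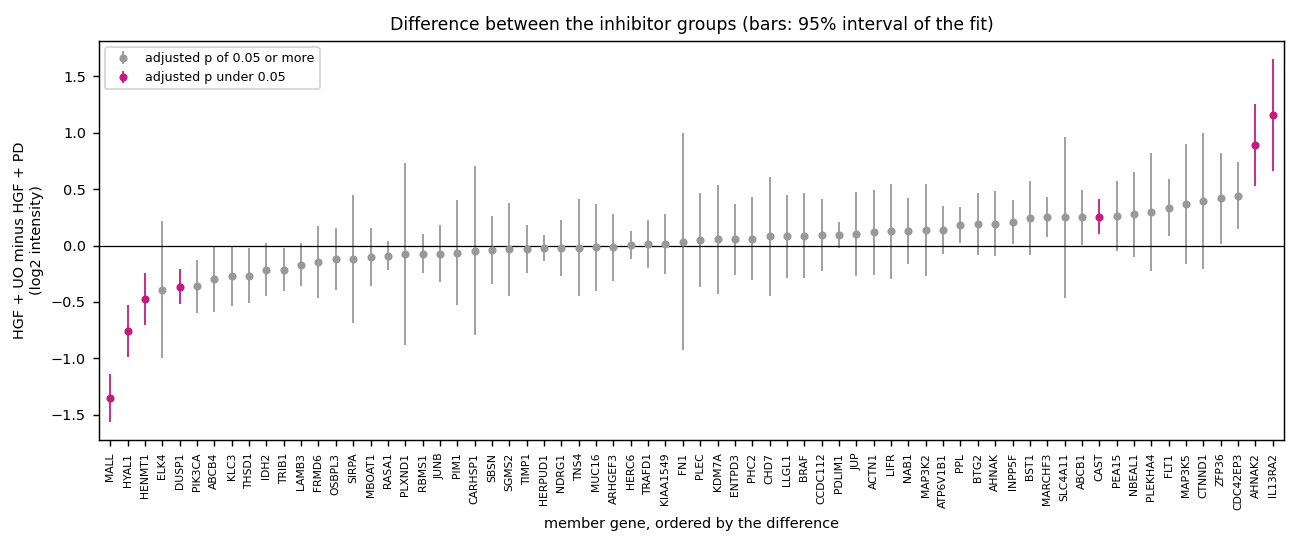
Difference between the HGF + UO and HGF + PD means (vertical axis, log2 intensity) of each of the 68 genes (horizontal axis, ordered by the difference), with the 95% interval of the fit as bars. The 7 genes in pink passed an adjusted p of 0.05, from MALL at -1.35 to IL13RA2 at 1.15, and the others are in grey.

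Some known outputs of the pathway were part of this set, which holds 0.661% of all genes. The lists were chosen with earlier results of these data known, so no enrichment is read from the shares below. Of 26 measured genes of an ERK output and feedback list, 1 (3.85%, DUSP1) belonged to the 68, and of 20 immediate early genes 3 (15%) did (BTG2, JUNB and ZFP36). FOS, an immediate early gene outside that list, met the limits and was left out by name. In the actin and SRF list 1 of 34 did (ACTN1), and in the hemidesmosome and epidermal list 3 of 20 (JUP, LAMB3 and PLEC). The lists of cholesterol synthesis (18 measured), mitosis and S phase (34), YAP and TEAD targets (15), apoptosis and p53 (18) and vesicle traffic and lipid signalling (17) held none. Of the remaining lists, secreted ligands and receptors held 1 of 48 (LIFR), glycolysis and hypoxia 1 of 29 (NDRG1), the unfolded protein and ATF4 list 1 of 24 (HERPUD1), matrix and its proteases 2 of 25 (FN1 and TIMP1) and small GTPase regulators 2 of 25 (CDC42EP3 and RASA1).

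The list genes outside the 68 were tested against Control, by limma with adjustment over all probe sets. Both inhibitor comparisons share the Control arrays. Of the 25 other ERK output genes, 4 were higher and 5 lower with HGF + PD, and 3 higher and 4 lower with HGF + UO. Over all genes 21.8% were higher and 13.5% lower with HGF + PD, and 13.8% higher and 10.3% lower with HGF + UO. The median difference of the list was -0.05 for HGF + PD and -0.04 for HGF + UO, against -0.01 over all genes for both.

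Of the 17 other immediate early genes, which share EGR1, IER2, IER3 and MYC with the ERK list, 3 were higher and 9 lower with HGF + PD, and 3 higher and 8 lower with HGF + UO. Their median differences were -0.40 and -0.30. EGR1, a zinc finger factor induced by ERK, was lower than Control by 4.10 ± 0.24 (limma adjusted p = 2.31e-08) with HGF + PD and by 3.45 ± 0.26 (limma adjusted p = 5.21e-07) with HGF + UO. It is not in the set because it was also lower with HGF alone (-1.31). IER2, another immediate early gene, was lower by 1.21 ± 0.08 and 1.31 ± 0.08 (limma adjusted p = 3.78e-08 and 9.35e-08) and had an HGF difference of 0.15.

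DUSP5, an ERK phosphatase, differed from Control by -0.44 ± 0.18 (limma adjusted p = 0.067) with HGF + PD and was lower by 1.45 ± 0.19 (limma adjusted p = 7.46e-05) with HGF + UO, after an HGF difference of 2.73. The mRNA decay factor ZFP36L1 was lower in both inhibitor groups, by 0.50 ± 0.12 and 0.75 ± 0.13. On the other side KLF4, a factor of epithelial differentiation, stayed above Control by 2.90 ± 0.16 and 1.67 ± 0.18. IER3 stayed above it by 0.73 ± 0.11 and 0.74 ± 0.12, and the ERK phosphatase DUSP6 by 1.07 ± 0.06 and 0.35 ± 0.06. CCN1, a secreted matrix-associated protein, was above Control with HGF + UO (0.86 ± 0.10) and differed by 0.11 ± 0.09 with HGF + PD (limma adjusted p = 0.37).

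Among the 17 other genes of the hemidesmosome and epidermal list, 11 were lower and 0 higher with HGF + PD, and 6 lower and 0 higher with HGF + UO (limma). At an unadjusted p under 0.05, 11 and 9 were lower and 0 and 0 higher. The keratins KRT8 and KRT18 of simple epithelia, chosen here after their values were seen, were lower with HGF + PD by 0.50 ± 0.07 and 0.42 ± 0.07 and with HGF + UO by 0.69 ± 0.07 and 0.55 ± 0.08. The mitosis and S phase list stood on the opposite side. Of its 34 genes 33 were higher and 0 lower than Control with HGF + PD (0 also at an unadjusted p under 0.05), and 30 higher and 1 lower with HGF + UO. With HGF alone, 31 of these 34 genes were at least 0.5 above Control, as were 16.8% of all genes.

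In the actin and SRF list, 4 of the 33 other genes were higher and 13 lower than Control with HGF + PD, and 5 higher and 9 lower with HGF + UO. The 15 YAP and TEAD targets gave 2 higher and 5 lower with HGF + PD and 3 higher and 4 lower with HGF + UO. Metabolic lists lay mostly above Control. In the cholesterol synthesis list (18 genes), HGF + PD gave 14 higher and 0 lower, and HGF + UO 11 higher and 0 lower (limma, 0 lower also at an unadjusted p under 0.05 in both). In the glycolysis and hypoxia list (28 other genes), limma gave 17 higher and 0 lower with HGF + PD (0 lower also at an unadjusted p under 0.05), and 16 higher and 1 lower with HGF + UO. With HGF alone, 15 of the 18 cholesterol synthesis genes and at least 23 glycolysis and hypoxia genes were at least 0.5 above Control.

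The remaining lists were mixed. The 23 other unfolded protein and ATF4 genes gave 9 higher and 2 lower with HGF + PD and 10 higher and 1 lower with HGF + UO. The 47 other secreted ligands and receptors gave 7 higher and 12 lower, then 8 higher and 6 lower. The 23 other matrix and protease genes gave 3 higher and 5 lower, then 4 higher and 4 lower. The 18 apoptosis and p53 genes gave 3 higher and 2 lower, then 4 higher and 3 lower. The 17 vesicle and lipid signalling genes gave 4 higher and 3 lower, then 1 higher and 5 lower, and the 23 other small GTPase regulators 3 higher and 3 lower, then 2 higher and 2 lower.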

How the data were processed

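Gene expression was measured in 15 MDCK cultures on Affymetrix canine arrays. The authors deposited one linear intensity per probe set, made with GCRMA per the submitters' processing notes (version not given in the sources used here), which corrects background from probe sequence and normalises between arrays. Its background step sets the size of differences near the floor. From the deposited intensity, log2 values were taken without further scaling. Probe sets with log2 of at least 4 on 3 or more arrays were kept, which left 24904 of 43035, 111 control probe sets being left out. R 4.3.3 with limma 3.58.1 fitted 1 mean per group with a variance trend, and p-values were adjusted by Benjamini-Hochberg over all kept probe sets. The fit was tested on simulated data. The gene set and lists were chosen with earlier results of these data known. Array values are given for the genes with the 10 largest HGF differences, the 10 deepest inhibitor differences and those that differed between inhibitors (21 genes), and for FN1, JUNB, ZFP36 and ABCB1, which were chosen after their values were seen. Genes outside the set are the largest changes of the ERK and immediate early lists and the genes nearest to each limit. Cell markers and genes left out by name are also given. KRT8 and KRT18 were chosen after their values were seen. Alternatives were another scale, filter, step, centre, probe set choice, variance model, block and each array left out. No 2 arrays held identical values. The number of arrays limits the precision. Symbols came from the platform annotation. Promoter and protein sequences were not used here.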

Additional observations from a re-analysis of the deposited data

Results flagged for a closer look

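Of 204 groups of arrays examined for the 68 genes, 13 (6.37%) had 1 array set apart from the rest, measured as its gap to the nearest array over the range of the group. Chance marks about 1 in 20 groups, and groups of 3 arrays (HGF + UO) were not examined. In Control, replicate 1 was high for CCDC112 (0.845) and MUC16 (0.847), replicate 3 was low for KLC3 (0.863), and replicate 4 was low for SGMS2 (0.851) and SIRPA (0.838). In HGF, replicate 4 was high for CARHSP1 (0.857) and replicate 3 for SIRPA (0.840), while HENMT1 (0.848, replicate 3), HERC6 (0.945, replicate 1) and TRIB1 (0.834, replicate 2) each had 1 low array. In HGF + PD, replicate 1 was low for ARHGEF3 (0.989) and LAMB3 (0.852), and replicate 2 was high for NDRG1 (0.915). The widest gaps on the log2 scale were 1.71 for CARHSP1, 0.88 for SGMS2 and 0.77 for MUC16.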

How the results depend on the processing

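The number of genes meeting the limits was 303 with steps of 0.25, 23 with steps of 0.75 and 34 when all probe sets of a gene had to meet them, and 58 to 75 with 1 array left out. Between the inhibitor groups, the inhibitor arrays alone gave 1 gene higher and 2 lower with HGF + UO, and quantile scaling 6 higher. With 1 array left out these counts were 2 to 5 and 3 to 5. Some differences that did not pass the threshold with all arrays changed sign. With the replicate number as a block they were MUC16 (0.0054) and SBSN (0.0027). With 1 array left out the ranges were -0.15 to 0.25 for ENTPD3, -0.062 to 0.035 for MUC16, -0.26 to 0.017 for OSBPL3, -0.13 to 0.059 for SBSN, -0.14 to 0.033 for SGMS2, -0.15 to 0.61 for SLC4A11, -0.12 to 0.033 for TIMP1 and -0.24 to 0.23 for TNS4, and -0.025 to 0.073 for the median of the 68 genes. The cause was not tested. Deviations of same-numbered arrays from their group means correlated between -0.25 and 0.41 (median 0.05), and those of other pairs between -0.49 and 0.40 (median 0.01). With so few arrays per group these correlations cannot decide whether same-numbered arrays shared an experiment. With the replicate number as a block, CAST no longer passed the threshold. Promoter motifs were not run, and values near the filter level limit SBSN, MUC16, FRMD6, ELK4, IL13RA2, SLC4A11 and MAP3K2.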
